A study of Mus musculus with 9 samples.

Results

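The 10 genes described here are 4 fibroblast growth factor (FGF) ligands, Fgf4, Fgf8, Fgf15 and Fgf17, the receptors Fgfr1 and Fgfr2, and the feedback and target genes Spry2, Spry4, Dusp6 and Etv4. They were chosen by gene symbol from 49326 named gene identifiers, and all 10 passed the filter on low counts. PolyA+ RNA was sequenced from mouse cells carrying Hnrnpll-/- or wild-type alleles, with 1 library for each line and day. The Hnrnpll-/- groups are lines G6 and H8 as embryonic stem cells (day 0) and as embryoid bodies of day 4 and of day 8, which gives 2 libraries per day. The wild-type groups have 1 library at each of the same days. Serum (15%, fetal bovine) and leukemia inhibitory factor were in the medium of the stem cells of both genotypes. Embryoid bodies, clumps of stem cells that differentiate toward the germ layers, were formed in drops of medium hanging from a surface. The protein made from Hnrnpll belongs to the hnRNP family of RNA-binding proteins and regulates splicing. The series asks how its loss alters gene expression as embryoid bodies form.

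FGF ligands are secreted proteins that bind receptor tyrosine kinases together with heparan sulfate and activate the ERK kinase cascade. In the early mouse embryo Fgf4 from epiblast cells acts on Fgfr1 and Fgfr2 to set apart primitive endoderm, and in cultured stem cells it drives the exit from the naive state. Fgf8 is later made in the primitive streak, where it is needed for mesoderm cells to move away. ERK activity induces its own brakes, the Sprouty proteins and the phosphatase Dusp6, and the ETS transcription factors Etv4 and Etv5, so these RNAs are widely used as a readout of FGF signalling.

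Total counts in named genes ran from 54202944 (G6) and 61611725 (H8) in knockout stem cells to 184890212 in the day 8 knockout library of H8, with 113023429 to 135523808 in wild type. The day 0 knockout libraries were the shallowest and stood apart in a further way. Of their genes with low counts (up to 40), 43.5% and 42.6% held a multiple of 4, against 30.5% to 33.2% in the other libraries. A share of 25% would hold if these counts were spread evenly. A count may thus not be an independent fragment, and counting intervals can be too narrow. Hnrnpll RNA was still present in the knockout: 54.9 and 24.5 TPM (a level scaled to gene length and library size) in G6 and H8 at day 0 against 77.1 TPM in wild type, 61.2 and 38.6 against 101 TPM at day 4, and 56.5 and 43.5 against 112 TPM at day 8. Its day 0 difference was -0.996 ± 0.453 on the log2 scale (SE, adjusted p = 0.245), and the labels do not say which part of the gene was altered, so RNA over the whole gene does not test the knockout. The 7 pluripotency markers (Pou5f1, Nanog, Sox2, Esrrb, Zfp42, Tfcp2l1 and Klf4) summed to 4300.4 and 4768 TPM in knockout and 2713 TPM in wild-type stem cells. The labelled stem cells thus carry these marker RNAs. The sum does not set stem cells apart from bodies, since it was 2762 and 2784 TPM in day 8 knockout bodies. The 6 fibroblast or feeder markers summed to 132 (G6) and 67.2 TPM (H8) in knockout and 159 TPM in wild-type stem cells. At day 4 their sums were 21.2 and 21.3 TPM in knockout and 34.6 TPM in wild type. Their part in the day 0 differences was not tested.

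Fgf4, the main ligand of pluripotent cells, was above wild type in both knockout lines at every day and passed the test at days 0 and 8. Fgf4 (ENSMUSG00000050917) lies on chromosome 7 from 144847367 to 144865243, plus strand, in mm10 coordinates of GENCODE M21. At day 0 the knockout libraries stood at 152 TPM (G6) and 167 TPM (H8), against 46.7 TPM in wild type. At day 4 the values were 70.6 and 45.2 TPM in the knockout, against 14.2 TPM in wild type. By day 8 it was at 131 and 124 TPM in the knockout, against 21.4 TPM in wild type. Both knockout libraries lay above wild type at all 3 days, and the lowest knockout library of the course, H8 at day 4, lay just below the highest wild-type library, day 0. The knockout mean at day 0 was 159 ± 10.4 TPM, at day 4 57.9 ± 17.98 TPM and at day 8 128 ± 4.54 TPM (SD, n = 2 lines), which is 3.41, 4.07 and 5.98 times the wild-type value of the same day.

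In the quasi-likelihood test of counts (edgeR, Benjamini-Hochberg adjustment over 24794 genes, threshold 0.05), the log2 fold change of Fgf4 was 1.77 ± 0.270 at day 0 (SE, adjusted p = 0.0234), 1.97 ± 0.273 at day 4 (adjusted p = 0.120) and 2.68 ± 0.285 at day 8 (adjusted p = 0.0175). Over all days, in a model of day plus genotype, it was 2.12 ± 0.217 (adjusted p = 0.0212), and Fgf4 was the only one of the 10 genes called there. In the comparisons by day the wild type is 1 library, assumed to vary like the knockout lines, whereas its 3 libraries enter the spread of the model over all days. An effect of the genotype and a difference between cell lines cannot be told apart. The day 0 call was lost without the day 8 knockout library of G6 (adjusted p = 0.0578) or of H8 (0.0544), and the day 8 call when the G6 (0.0566) or H8 (0.0562) library of day 4 or the G6 library of day 8 (0.0757) was left out. Without the day 0 libraries, an alternative added after seeing the data, the day 8 value was 2.68 ± 0.276 (adjusted p = 0.0191). The call over all days was lost without the day 0 library of H8 (adjusted p = 0.0513), the day 4 library of G6 (0.0680) or H8 (0.0629), the day 8 library of H8 (0.0555) or all day 0 libraries (0.0568), while the log2 fold change stayed between 2.06 and 2.30 in these fits.

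The 250 bases before the RefSeq start of Fgf4 (GRCm38.p6, the assembly of mm10) lie inside the span that GENCODE gives the gene. They are shown because Fgf4 carries the clearest genotype difference among the ligands; no capitals appear because neither ETS motif described with Dusp6 occurs in them, and 71.2% of the bases are G or C.
Fgf4 chr7:144861136-144861385, plus strand: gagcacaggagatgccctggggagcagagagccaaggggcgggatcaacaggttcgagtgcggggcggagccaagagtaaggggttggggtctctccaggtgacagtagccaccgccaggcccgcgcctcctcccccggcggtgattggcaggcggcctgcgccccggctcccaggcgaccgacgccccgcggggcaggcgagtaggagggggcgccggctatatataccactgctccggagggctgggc

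The pluripotency markers were higher in the knockout together with Fgf4 at days 0 and 8 and less uniformly at day 4. Their sum was 1663 and 1830.4 TPM in knockout and 1462 TPM in wild-type bodies at day 4, and 2762 and 2784 TPM in knockout and 466 TPM in wild-type bodies at day 8. Of these 7 markers, 2 were called higher in the knockout at day 0 (1.11% of all genes), 0 at day 4 (0.00403%) and 6 at day 8 (5.01%), with none called lower at any day. At day 4, 5 of the 7 had a positive log2 fold change and 2 a negative one: Nanog was at 144 and 214 TPM in the knockout against 216 TPM in wild type, and Pou5f1, the marker of highest level, at 1025 and 1161 TPM against 1059.9 TPM. None of the 7 was called at day 8 if either day 4 knockout library or the G6 library of day 8 was left out, nor at day 0 if any 1 of the 4 knockout libraries of days 4 and 8 was left out. Whether more cells with stem cell character or more Fgf4 RNA per cell gave the higher level cannot be told apart in bulk RNA, for this gene or for the others.

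**Figure D1:**
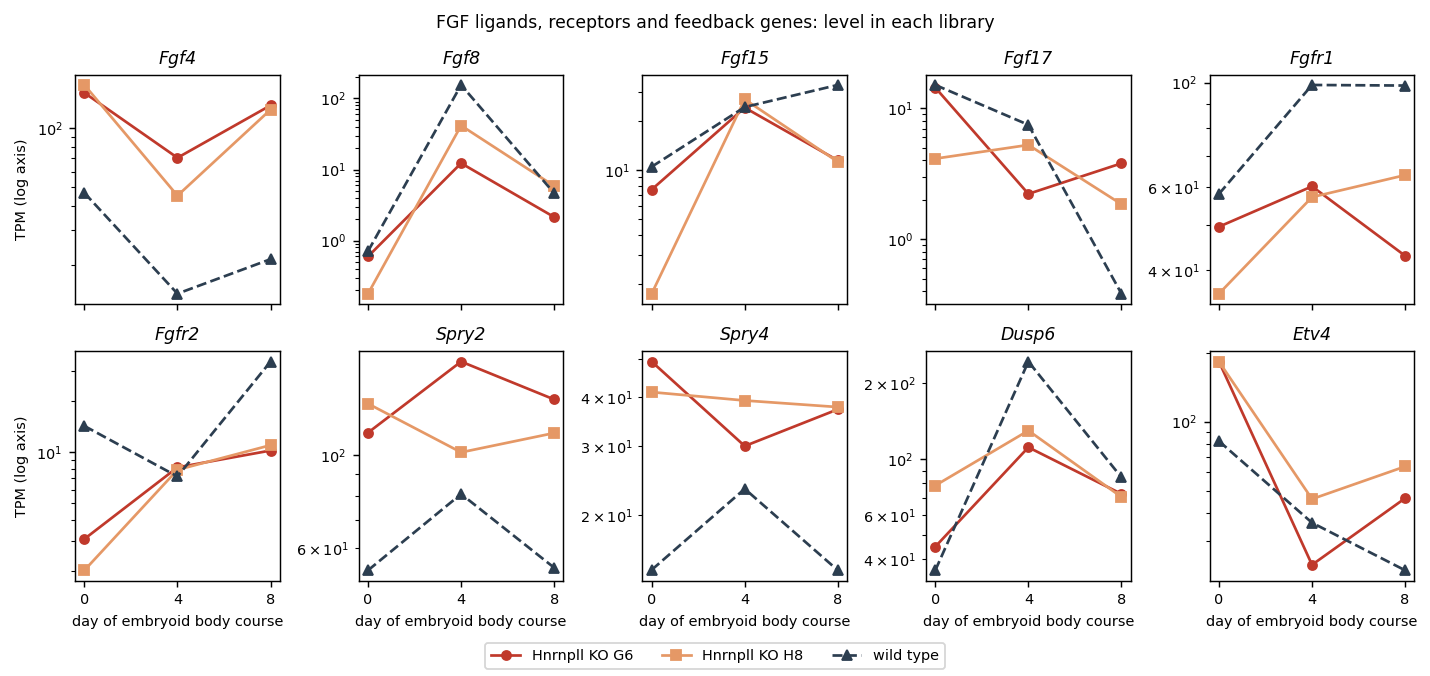
Level of each of the 10 genes in every library, in TPM on a log axis whose range differs between panels, against the day of the embryoid body course; points are single libraries, with Hnrnpll knockout lines G6 and H8 as solid lines and wild type as a dashed line. Fgf4, Spry2 and Spry4 are above wild type in both knockout lines at each day, and Fgf8 and Dusp6 peak at day 4 in all 3 lines.

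Fgf8 (ENSMUSG00000025219; chromosome 19, 45736798 to 45742915, minus strand), the ligand of the primitive streak, had the widest range of the 10 genes, with its highest library 865 times its lowest. It was nearly silent at day 0, with 20 counts in G6 (95% exact Poisson interval 12.2 to 30.9), 7 in H8 (2.81 to 14.4) and 42 in wild type (30.3 to 56.8), or 0.598, 0.179 and 0.710 TPM. At day 4 it reached 12.3 and 41.6 TPM in the knockout lines, against 155 TPM in wild type. At day 8 it was back at 2.14 and 5.86 TPM in the knockout, against 4.64 TPM in wild type. Both knockout lines were thus below wild type at day 4 and on either side of it at day 8, and the lines themselves differed 3.39 times at day 4.

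Neither difference passed the test: the log2 fold change was -2.60 ± 0.876 at day 4 (SE, adjusted p = 0.299) and -0.12 ± 0.920 at day 8 (adjusted p = 0.950). DESeq2 gave the same direction at day 4 and called it (-2.63 ± 0.857, adjusted p = 0.0374). Within the knockout the day 4 peak did pass, at 5.93 ± 0.979 over day 0 (adjusted p = 0.0160), and this call was lost without the day 0 library of H8 (adjusted p = 0.0633) or the day 4 library of H8 (0.0557). The difference of day 4 minus day 0 in log2(TPM + 1) was 3.05 in G6 and 5.18 in H8, against 6.51 in wild type, and the difference between the genotypes in this step was not called (interaction -1.93 ± 1.46, adjusted p = 0.546).

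The 6 markers of primitive streak and mesendoderm (T, Mixl1, Eomes, Mesp1, Gsc and Wnt3) moved with Fgf8. They summed to 59.0 and 128 TPM in the day 4 knockout libraries, against 1565 TPM in wild type, and all 6 had a negative log2 fold change at day 4, with none called. Mesp1 was listed at 0 in the day 4 library of G6 and stood at 1.98 TPM in that of H8. Their part in the Fgf8 difference was not tested.

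Fgf15, the mouse counterpart of human FGF19 and a ligand of later neural and gut tissue, had a level below wild type in the day 8 knockout. The gene (ENSMUSG00000031073) lies on chromosome 7 from 144896531 to 144900953, plus strand. It stood at 7.57 and 1.74 TPM in the knockout at day 0 against 10.5 TPM in wild type, at 24.1 and 27.1 TPM in the knockout at day 4 against 24.3 TPM in wild type, and at 11.4 and 11.2 TPM in the knockout at day 8 against 33.2 TPM in wild type. The genotypes overlapped at day 4, and both knockout lines were lower at day 8 than at day 4, whereas the wild-type level was higher. The day 8 log2 fold change of -1.42 ± 0.677 missed the threshold (adjusted p = 0.223). The 2 lines, whose spread over all days enters this test, differed 4.36 times at day 0 and 1.02 times at day 8. Without the day 0 libraries, the alternative added after seeing the data, the same difference was -1.42 ± 0.188 (adjusted p = 0.0215), and it was called as well with the day 0 library of either G6 (0.0220) or H8 (0.0216) left out. At day 0 the value was called only without the day 0 library of G6 (-2.52, adjusted p = 0.0210). Within the knockout, day 4 over day 0 gave 2.47 ± 0.610 (adjusted p = 0.0467), a call lost when the G6 (adjusted p = 0.148) or H8 (0.168) library of day 4 or the G6 (0.0835) or H8 (0.0843) library of day 8 was left out. Of the exon bases of Fgf15, 24.9% are shared with the antisense gene Gm26793 (0.176 to 1.80 TPM), and since use of strand in counting is not given, reads of the pair cannot be told apart.

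Fgf17, a close relative of Fgf8, lay below wild type early in the course and above it at the end. Its locus (ENSMUSG00000022101) is chromosome 14, 70636203 to 70642268, minus strand. The gene was at 14.4 and 4.13 TPM in the knockout at day 0 against 15.1 TPM in wild type, at 2.22 and 5.26 TPM in the knockout at day 4 against 7.49 TPM in wild type, and at 3.80 and 1.85 TPM in the knockout at day 8 against 0.383 TPM in wild type. Both knockout lines lay below wild type at days 0 and 4 and above it at day 8, where wild type had 43 counts (95% exact Poisson interval 31.1 to 57.9). With a log2 fold change of 2.98 ± 1.05 at day 8 the test did not call it (SE, adjusted p = 0.122), and the lines differed 2.05 to 3.49 times at each day. DESeq2 called the day 8 difference (2.95 ± 0.871, adjusted p = 0.00527).

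Shares were taken of the summed TPM of all 22 measured genes of the FGF family. Fgf11 to Fgf14 are among these and do not make secreted ligands. At day 0 Fgf4 made up 77.7% in G6 and 84.5% in H8, against 42.7% in wild type. At day 4 its share was 39.2% in G6 and 22.3% in H8, against 3.80% in wild type. At day 8 it was 76.4% in G6 and 72.2% in H8, against 18.3% in wild type. The ligand of highest level therefore differed between genotypes at 2 of the 3 days. At day 4 it was Fgf4 in G6, Fgf5 in H8 (28.3%) and Fgf8 in wild type (41.4%), and at day 8 it was Fgf4 in both knockout lines and Fgf15 in wild type (28.5%). The sum itself stood at 195 and 197 TPM in the knockout at day 0 against 109 TPM in wild type, at 180.0 and 202 TPM in the knockout at day 4 against 375 TPM in wild type, and at 171 and 172 TPM in the knockout at day 8 against 117 TPM in wild type. No test was run on these shares.

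**Figure D2:**
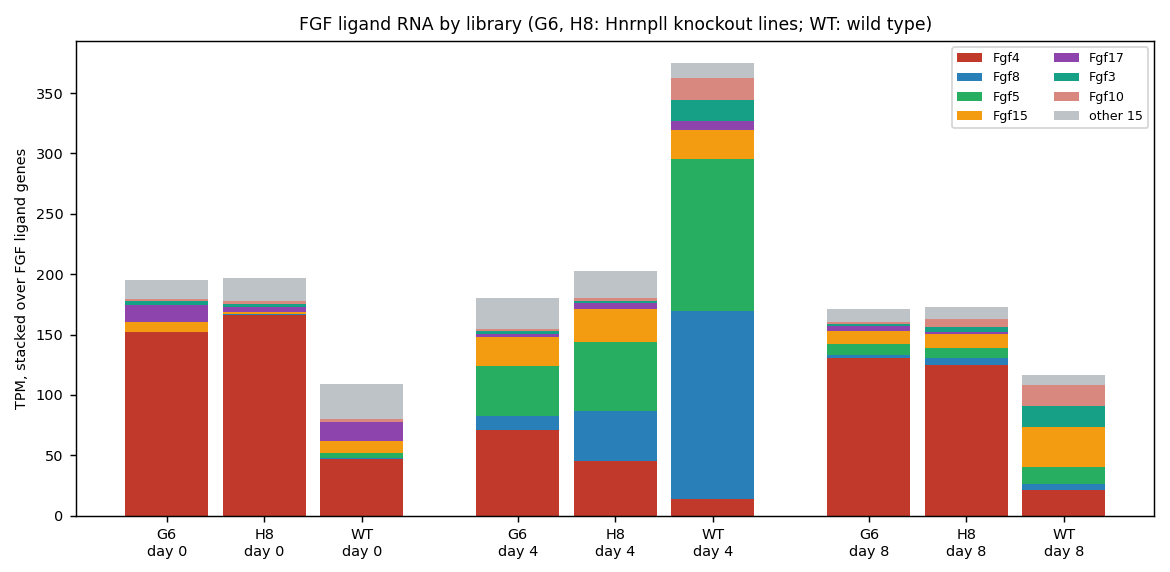
TPM stacked over the 22 measured genes of the FGF family, one bar per library, with knockout lines G6 and H8 left of wild type (WT) at each day. Fgf4 fills most of the knockout bars at day 0 and day 8, and Fgf8 and Fgf5 fill most of the wild-type bar at day 4.

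Fgf4 and Fgf15 are neighbours on chromosome 7, with Fgf3 on the other side of Fgf4 (144838083 to 144844436). All 3 genes lie on the plus strand within 62871 bases. By their GENCODE spans, 2931 bases lie between Fgf3 and Fgf4 and 31288 bases between Fgf4 and Fgf15. The window before the RefSeq start of Fgf4 ends at 144861385, inside its span, so that start lies farther from Fgf3. At day 8 they lay on different sides of wild type. Fgf3, an ear and tail bud ligand that is no member of the 10 genes, was at 1.45 and 3.94 TPM in the day 8 knockout libraries against 17.1 TPM in wild type, a called difference (log2 fold change -2.67 ± 0.584, SE, adjusted p = 0.0431). The Fgf3 call was lost without the day 4 library of G6 (adjusted p = 0.0950) or H8 (0.0951) or the day 8 library of G6 (0.103), and with total count scaling (0.0509). At that day Fgf4 was above wild type, and Fgf15, not called, was below it.

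Of Fgfr1 and Fgfr2, Fgfr2 was the one with a called difference between genotypes. Its main isoforms bind FGFs of the Fgf7 or of the Fgf4 type according to a spliced exon, which gene-level counts cannot show. The gene (ENSMUSG00000030849) is on chromosome 7, minus strand, from 130162451 to 130266263 without its longest annotated transcript, which extends to 133123350. At day 0 it stood at 3.07 and 2.01 TPM in the knockout lines (165 and 136 counts), against 14.3 TPM in wild type (2470 counts). At day 4 it was at 8.14 and 7.87 TPM in the knockout, against 7.19 TPM in wild type. At day 8 it was at 10.2 and 10.999 TPM in the knockout, against 34.2 TPM in wild type. The groups were thus wide apart at days 0 and 8, with wild type the higher, and close at day 4, where both knockout lines were slightly above it.

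The log2 fold change of Fgfr2 was -3.08 ± 0.244 at day 0 (SE, adjusted p = 0.00484), 0.16 ± 0.250 at day 4 (adjusted p = 0.839) and -1.64 ± 0.238 at day 8 (adjusted p = 0.0230). The day 0 call held in all alternatives run. These included each library left out except the wild-type library of day 0, the only wild-type library of this comparison. The day 8 call was lost when the G6 (adjusted p = 0.0671) or H8 (0.0668) library of day 4 or the G6 (0.103) or H8 (0.0730) library of day 8 was left out, and it was -1.64 ± 0.164 without the day 0 libraries (adjusted p = 0.0188). Over all days the edgeR test on all libraries did not call Fgfr2. It was called by DESeq2 (-1.73 ± 0.483, adjusted p = 0.00518) and when wild-type day 4 was left out (-2.42, adjusted p = 0.0355). Without the day 0 libraries the value over the other days was -0.85 ± 0.398 (adjusted p = 0.264). In the knockout Fgfr2 rose between day 0 and day 4 by 2.40 ± 0.217 (adjusted p = 0.00292), a call kept in all alternatives run, while the wild-type value at day 4 lay below that at day 0 by a log2(TPM + 1) difference of -0.90. This gave an interaction of 3.24 ± 0.365 (adjusted p = 0.0428), called for 1 of the 10 genes and for 0.504% of all genes (0.456% higher and 0.0484% lower). With the knockout line as a replicate block the interaction was 3.24 with an adjusted p of 0.0616, so the call is lost. It is lost as well when the G6 (adjusted p = 0.226) or H8 (0.213) library of day 4 or the G6 (0.132) or H8 (0.136) library of day 8 is left out, and with limma on log2(TPM + 1) (0.0641) or log2(TPM + 0.1) (0.0647).

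For Fgfr2, 3.04% of exon bases are shared with Ctbp2 through 1 of its 27 transcripts. Ctbp2 ran at 106 to 311 TPM on the same strand, so reads of the shared stretch are uncertain. The 250 bases before the RefSeq start of Fgfr2 are shown because this gene has the largest called difference of the 10 at day 0. Capitals mark the single match to AGGAAG, which holds the core that ETS factors such as Etv4 bind, searched on both strands.
Fgfr2 chr7:130266809-130267058, minus strand: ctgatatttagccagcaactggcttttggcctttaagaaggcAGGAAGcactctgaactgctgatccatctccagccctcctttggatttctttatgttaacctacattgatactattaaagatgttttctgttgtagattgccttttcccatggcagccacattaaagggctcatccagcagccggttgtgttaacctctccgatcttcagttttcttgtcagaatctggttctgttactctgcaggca

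Fgfr1, the receptor through which stem cells mainly receive Fgf4, was the most abundant of the 4 receptor genes in all 9 libraries, with 66.2% to 91.8% of their summed TPM. The gene (ENSMUSG00000031565; chromosome 8, 25513654 to 25575718, plus strand) was at 49.5 and 35.7 TPM in the knockout at day 0 against 58.1 TPM in wild type, at 60.3 and 57.2 TPM in the knockout at day 4 against 98.8 TPM in wild type, and at 43.0 and 63.7 TPM in the knockout at day 8 against 98.6 TPM in wild type. Both knockout libraries lay below wild type at each day. None of these differences was called: the log2 fold changes were -0.27 ± 0.268, -0.67 ± 0.265 and -0.76 ± 0.264 at days 0, 4 and 8 (SE, adjusted p = 0.591, 0.355 and 0.119), and -0.57 ± 0.166 over all days (adjusted p = 0.118). DESeq2 called the value over all days lower (-0.59 ± 0.207, adjusted p = 0.0339). The ratio of Fgfr1 to Fgfr2 was 16.1 and 17.8 in the knockout against 4.07 in wild type at day 0, 7.41 and 7.27 against 13.7 at day 4, and 4.201 and 5.79 against 2.88 at day 8, so the order of the genotypes in this ratio turned round at day 4. An antisense gene, Gm16159 (0.286 to 2.18 TPM), shares 1.66% of the exon bases of Fgfr1.

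**Figure D3:**
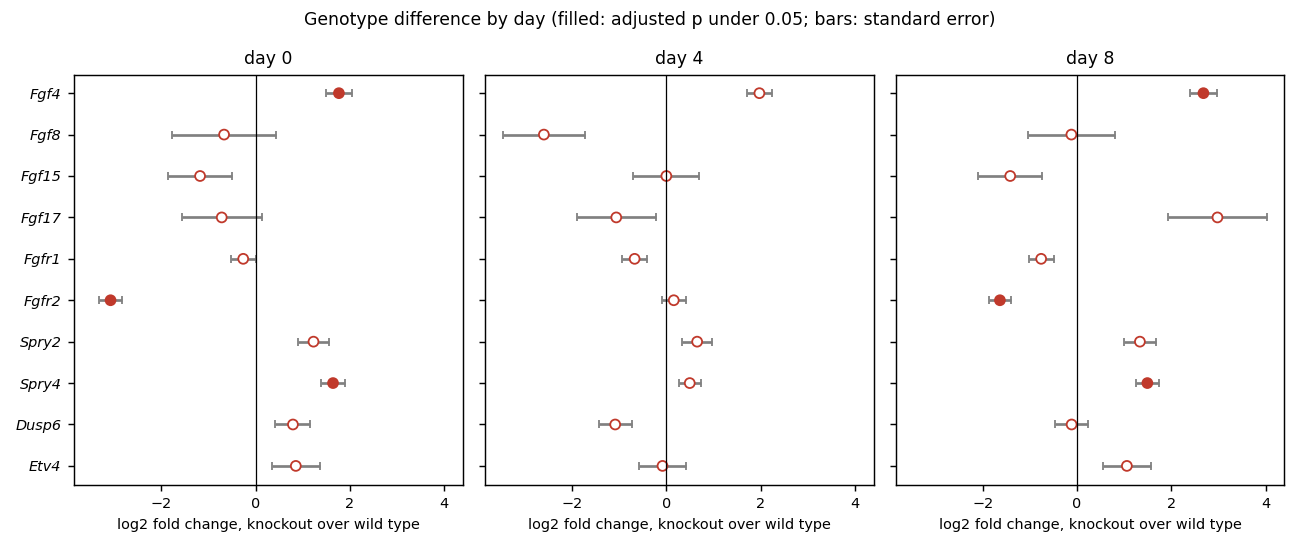
Log2 fold change of Hnrnpll knockout over wild type for each of the 10 genes at day 0, day 4 and day 8, with bars for the standard error; filled points have an adjusted p under 0.05. Fgf4 and Spry4 are filled on the right and Fgfr2 on the left at day 0 and day 8, and no point is filled at day 4.

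Among the feedback genes, Spry4 was called higher in the knockout at days 0 and 8, and Spry2 lay in the same order without a call. Spry4 (ENSMUSG00000024427; chromosome 18, 38586247 to 38601415, minus strand) restrains receptor signalling upstream of ERK. It was at 49.2 and 41.1 TPM in the knockout at day 0 against 14.5 TPM in wild type, at 29.997 and 39.2 TPM in the knockout at day 4 against 23.3 TPM in wild type, and at 37.2 and 37.7 TPM in the knockout at day 8 against 14.5 TPM in wild type. All 6 knockout libraries were above all 3 wild-type libraries, an order whose share over all genes was not counted. The log2 fold change was 1.64 ± 0.248 at day 0 (SE, adjusted p = 0.0228), 0.50 ± 0.233 at day 4 (adjusted p = 0.423), 1.49 ± 0.246 at day 8 (adjusted p = 0.0259) and 1.18 ± 0.238 over all days (adjusted p = 0.0592). The value over all days was called by DESeq2 (adjusted p = 0.000483), with limma on log2(TPM + 0.1) (0.0409), with no filter on low counts (0.0431) and when wild-type day 4 was left out (0.0312). The day 0 call was lost without the day 8 library of G6 (adjusted p = 0.0625) or H8 (0.0635). The day 8 call was lost when the G6 (0.0638) or H8 (0.0639) library of day 4 or the G6 (0.103) or H8 (0.0727) library of day 8 was left out, and kept without the day 0 libraries (1.49 ± 0.241, adjusted p = 0.0267).

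Spry2 (ENSMUSG00000022114; chromosome 14, 105891947 to 105896819, minus strand) ran at a higher level than Spry4 and had the same order of groups. It stood at 113 and 133 TPM in the knockout at day 0 against 53.0 TPM in wild type, at 167 and 102 TPM in the knockout at day 4 against 80.7 TPM in wild type, and at 136 and 113 TPM in the knockout at day 8 against 53.8 TPM in wild type. Here too the 6 knockout libraries lay above the 3 wild-type libraries, and the share of all genes in this order was not counted. The differences at days 0 and 8 and over all days came close to the threshold without passing it. Their log2 fold changes were 1.23 ± 0.329 at day 0 (SE, adjusted p = 0.0905), 1.33 ± 0.331 at day 8 (adjusted p = 0.0583) and 1.06 ± 0.209 over all days (adjusted p = 0.0552). DESeq2 called all 3, with adjusted p = 0.00808, 0.00368 and 0.000557 in that order, and the filter on low counts left out gave a call over all days (adjusted p = 0.0422), as did limma on log2(TPM + 0.1) (0.0412). Total count scaling gave one at day 8 (0.0498). The day 4 difference was smaller and was called in no setting. It ran from 0.29 to 0.94 over the alternatives, with 0.62 ± 0.370 by DESeq2 (adjusted p = 0.405).

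Dusp6 (ENSMUSG00000019960; chromosome 10, 99263231 to 99267489, plus strand), the phosphatase that removes the activating phosphates from ERK, did not follow the Sprouty genes. It was at 44.9 and 78.5 TPM in the knockout at day 0 against 36.2 TPM in wild type, at 111 and 129.5 TPM in the knockout at day 4 against 243 TPM in wild type, and at 72.7 and 70.7 TPM in the knockout at day 8 against 84.6 TPM in wild type. Both knockout lines were above wild type at day 0 and below it at days 4 and 8. No difference was called: 0.79 ± 0.372 at day 0 (SE, adjusted p = 0.259), -1.09 ± 0.348 at day 4 (adjusted p = 0.285) and -0.12 ± 0.358 at day 8 (adjusted p = 0.865). The interaction between days 0 and 4 was -1.88 ± 0.514 (adjusted p = 0.164), and DESeq2 called it (adjusted p = 0.0161). Without the day 0 library of G6 the day 0 value was 1.17 (adjusted p = 0.0430) and the interaction -2.26 (adjusted p = 0.0499), both called, and with each library left out the day 0 value ran from 0.25 to 1.17.

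The promoter windows of Spry2 and Dusp6 are printed next because these feedback genes lay on different sides of wild type at days 4 and 8. Neither a difference between their courses nor a part of any sequence in it was tested. Of the 10 genes, 4 matched the RefSeq promoter table. On both strands the ETS motifs CCGGAAG and AGGAAG were searched, which occur in 6.91% and 29.5% of 32851 promoter windows of the same length. Capitals mark the single match, CTTCCT, which is AGGAAG on the other strand, 210 bases before the Dusp6 start. Spry2 has no match, and 62.4% of its bases are G or C, against 56.4% in Dusp6 and a median of 52.4% over all windows.
Spry2 chr14:105896820-105897069, minus strand: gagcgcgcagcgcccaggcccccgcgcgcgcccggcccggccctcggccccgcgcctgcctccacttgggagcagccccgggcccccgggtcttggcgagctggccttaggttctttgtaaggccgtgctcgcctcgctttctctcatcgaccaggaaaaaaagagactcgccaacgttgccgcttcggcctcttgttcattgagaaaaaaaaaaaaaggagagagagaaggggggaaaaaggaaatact
Dusp6 chr10:99262981-99263230, plus strand: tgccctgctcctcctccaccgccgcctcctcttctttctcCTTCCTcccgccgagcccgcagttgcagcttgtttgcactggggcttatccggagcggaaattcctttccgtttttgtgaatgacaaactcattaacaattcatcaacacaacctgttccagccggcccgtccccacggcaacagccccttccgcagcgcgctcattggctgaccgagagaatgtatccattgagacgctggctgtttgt

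Etv4 (ENSMUSG00000017724; chromosome 11, 101769742 to 101785371, minus strand), an ETS transcription factor induced by FGF, was highest in knockout stem cells. It stood at 183 and 183 TPM in the knockout at day 0 against 82.2 TPM in wild type, at 23.7 and 45.9 TPM in the knockout at day 4 against 36.2 TPM in wild type, and at 46.3 and 63.7 TPM in the knockout at day 8 against 22.4 TPM in wild type. The groups overlapped at day 4 and were apart at days 0 and 8, with the knockout the higher. The differences were not called, at 0.85 ± 0.509 (SE, adjusted p = 0.357), -0.08 ± 0.490 (adjusted p = 0.972) and 1.06 ± 0.516 (adjusted p = 0.232) at days 0, 4 and 8. Its fall in the knockout between day 0 and day 4 was called at -2.05 ± 0.416 (adjusted p = 0.0275), and the call was lost without the day 0 library of G6 (adjusted p = 0.0543) or H8 (0.0743) or the day 4 library of G6 (0.0871). Etv5, its closest partner, was at 222 and 163 TPM in the knockout at day 0 against 175 TPM in wild type, 181 and 95.5 TPM against 121 TPM at day 4, and 177 and 89.0 TPM against 74.4 TPM at day 8.

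Across the members, 2 of 10 were called higher (Fgf4 and Spry4) and 1 lower (Fgfr2) in the knockout at day 0, where 5.43% of all 24794 genes were called, 1.11% higher and 4.33% lower. The same 3 genes in the same directions were called at day 8, where 9.87% of all genes were called, 5.01% higher and 4.86% lower. The day 8 set shares no library with the day 0 set, but the fits share 1 estimate of the spread. At day 4 none of the 10 was called, 4 had an unadjusted p under 0.05, and 0.00807% of all genes, or 2 genes, were called (0.00403% higher and 0.00403% lower), against 3352 genes at an unadjusted p under 0.05 and 1320 by DESeq2. DESeq2 called 2 members at day 4, Fgf4 (adjusted p = 1.2e-07) and Fgf8. Over all days 1 of 10 was called, against 0.984% of all genes (0.387% higher and 0.597% lower). The members' median log2 fold change was 0.26 at day 0, -0.04 at day 4, 0.47 at day 8 and -0.14 over all days, beside -0.02, 0.07, 0.08 and -0.02 over all genes.

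Leaving the tests aside, both knockout libraries lay above wild type in TPM for 5 members and below it for 5 at day 0. At day 4 they lay above it for 4 and below it for 4, and at day 8 above it for 5 and below it for 4. Of all genes 32.9% were above and 40.2% below at day 0, with 46.1% above and 31.5% below at day 4, and 40.1% above and 44.4% below at day 8, so these counts are near the background.

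Along the knockout course, 3 of 10 members rose (Fgf8, Fgf15 and Fgfr2) and 2 fell (Fgf4 and Etv4) between day 0 and day 4, beside 14.7% of all genes called, 9.56% higher and 5.16% lower. For Fgf4 this fall was -1.46 ± 0.206 (SE, adjusted p = 0.00978), and it was lost without the day 4 library of H8 (adjusted p = 0.0610). Dusp6 had 0.95 ± 0.296 (adjusted p = 0.0835), with 0.57 to 1.47 when each library was left out, and was called without the day 0 library of H8 (1.47, adjusted p = 0.0170), by DESeq2 (0.0303) and with limma on log2(TPM + 0.1) (0.0490). The other members had no call, with Fgf17 at -1.27 ± 0.722 (adjusted p = 0.276), Fgfr1 0.46 ± 0.222 (adjusted p = 0.215), Spry2 0.11 ± 0.254 (adjusted p = 0.799) and Spry4 -0.38 ± 0.187 (adjusted p = 0.218). Between day 4 and day 8 no member was called, 3 had an unadjusted p under 0.05, and 0.311% of all genes were called (0.165% higher and 0.145% lower). DESeq2 called 2 members there, Fgf4 at 1.15 ± 0.253 (adjusted p = 0.000265) and Fgf8 at -2.79 ± 0.702 (adjusted p = 0.00214).

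The wild-type course was not tested and is given as differences between single libraries. In log2(TPM + 1) the difference of day 4 minus day 0 was 2.71 for Dusp6, 1.14 for Fgf15, 0.76 for Fgfr1, 0.65 for Spry4, 0.60 for Spry2, -0.92 for Fgf17, -1.16 for Etv4 and -1.65 for Fgf4. That of day 8 minus day 4 was 2.11 for Fgfr2, 0.55 for Fgf4, -1.51 for Dusp6, -2.62 for Fgf17 and -4.79 for Fgf8. Interactions between day 4 and day 8 were called for none of the 10 genes and for 0% of all genes, against 3 members and 4041 genes at an unadjusted p under 0.05 and 2 members and 1577 genes by DESeq2.

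Over the 9 libraries the levels of Dusp6 and Fgf8 had a Pearson r of 0.897 in log2(TPM + 1), the highest of any pair of members, and Spry2 and Spry4 had 0.829. Fgf4 had 0.736 with Spry4, 0.673 with Spry2 and 0.661 with Etv4. The lowest values were -0.884 for Fgf4 with Fgfr1 and -0.884 for Fgf15 with Etv4. These coefficients describe 9 points that share lines and days and are given without a p.

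**Figure D4:**
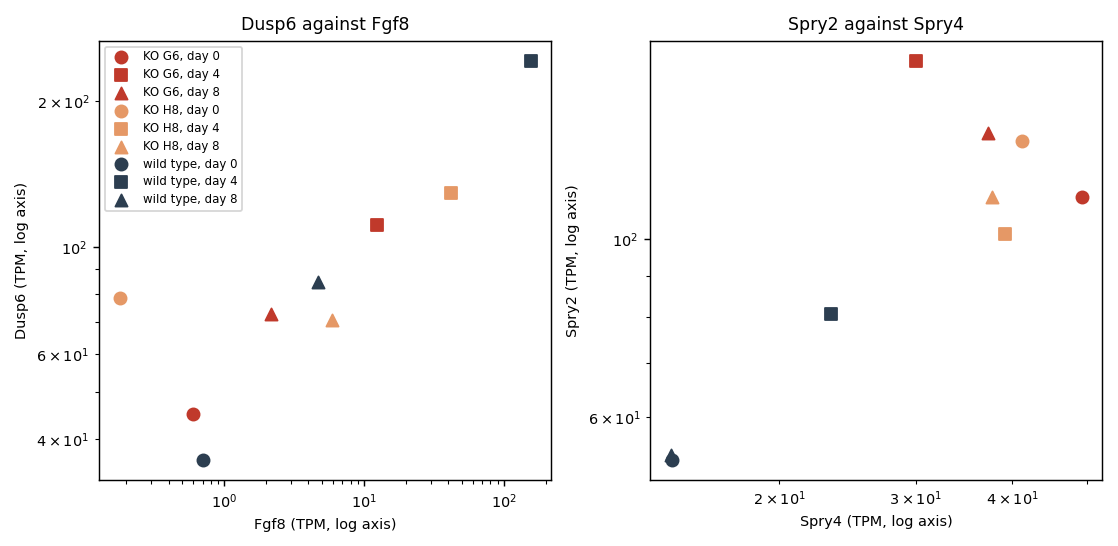
Level of Dusp6 against Fgf8 (left) and of Spry2 against Spry4 (right), in TPM on log axes, one point per library, with colour for the line and shape for the day. The wild-type day 4 library is at the top right of the left panel with 155 TPM of Fgf8 and 243 TPM of Dusp6, and the 3 wild-type libraries are at the bottom left of the right panel.

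The other genes of the pathway were read from 4 lists. Of 18 other genes of the FGF family, Fgf11 to Fgf14 included, 17 were tested. At day 0, 1 was called higher and 1 lower, and none was called at day 4. At day 8, 1 was higher and 1 lower, and over all days 1 was higher. Of all genes, 1.11% were called higher and 4.33% lower at day 0, 5.01% and 4.86% at day 8, and 0.387% and 0.597% over all days. Fgf5, a ligand of the primed epiblast, was the lower one at day 0, at 0.0826 and 0.370 TPM in the knockout against 4.30 TPM in wild type (log2 fold change -4.08 ± 0.617, SE, adjusted p = 0.0227), a call lost when the G6 (0.0625) or H8 (0.0641) library of day 4 or the G6 (0.0562) or H8 (0.0568) library of day 8 was left out. It was at 41.1 and 57.3 TPM against 126 TPM at day 4 and 8.76 and 8.94 TPM against 14.2 TPM at day 8, uncalled, and it rose in the knockout between day 0 and day 4 by 7.55 ± 0.632 (adjusted p = 0.00234). Fgf2, a broadly acting ligand, did not exceed 1.17 TPM in any library. The list's median log2 fold change was -1.43 at day 0, 0.49 at day 4 and 0.13 at day 8. In each library only 8 to 14 of all 22 genes of the family reached 1 TPM, so these medians rest partly on genes near the floor. The genes of the list called higher had a mean under 5 TPM and are not named.

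Of 16 further receptors, co-receptors and heparan sulfate genes, none was called at day 0 or day 4 and 6 were lower at day 8 (4.86% of all genes), with a median of -1.21 there beside 0.08 over all genes. Those of at least 5 TPM with the largest differences were Flrt2, an adhesion protein that binds FGF receptors (-4.12 ± 0.571, SE, adjusted p = 0.0213), the proteoglycan Gpc3 (-2.83 ± 0.431, adjusted p = 0.0233), the sulfotransferase Ndst1 (-1.75 ± 0.313, adjusted p = 0.0294) and the proteoglycan Sdc1 (-1.64 ± 0.235, adjusted p = 0.0225). None of the 6 calls was made if either day 4 knockout library (0 genes called in all) or the G6 library of day 8 (2 genes called) was left out, and 2 genes of the list were called without the day 8 library of H8. Of these 4 genes the adjusted p ran from 0.0562 to 0.103 in the fits without one of the first 3 libraries. Markers of differentiated cells moved with them at day 8: the 6 fibroblast markers summed to 23.7 and 42.4 TPM in the knockout against 507 TPM in wild type (1 of 6 called lower, Lum listed at 0 in G6), and the 6 cardiac markers to 7.33 and 10.8 TPM against 256 TPM (5 of 6 called lower). No marker of either list was called if either day 4 knockout library or the G6 library of day 8 was left out. Their part was not tested.

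Of 17 genes of the ERK cascade, 1 was higher at day 0, none was called at day 4, and 1 was higher and 3 were lower at day 8. The shares of all genes were 1.11% higher at day 0, and 5.01% higher and 4.86% lower at day 8. Frs3, an adaptor that docks to FGF receptors, was at 18.8 and 12.6 TPM in the knockout at day 0 against 4.41 TPM in wild type (1.86 ± 0.320, SE, adjusted p = 0.0323) and was called over all days (1.35 ± 0.244, adjusted p = 0.0498). The day 0 call was lost when the G6 (0.0887) or H8 (0.0876) library of day 4 or the G6 (0.0764) or H8 (0.0747) library of day 8 was left out, and the call over all days was lost without any 1 of the 9 libraries (adjusted p 0.0623 to 0.119) and with the replicate block (0.0672). The Frs3 call over all days was lost as well with limma on log2(TPM + 1) (adjusted p = 0.0614) and without the day 0 libraries (0.0756). At day 8 the adaptor Gab1 was higher (1.26 ± 0.173, adjusted p = 0.0211) and Sos2, Frs2 and Ptpn11 were lower, with log2 fold changes of -1.80, -0.98 and -0.85. None of these 4 was called if either day 4 knockout library or the G6 library of day 8 was left out, and 1, Gab1, was called without the day 8 library of H8. Of 17 other feedback and target genes, 16 were measured: 1 was lower at day 0, and none was called at day 4 or day 8. At day 0, 4.33% of all genes were called lower. The gene lower at day 0 was Dusp4, another phosphatase that acts on ERK, at 8.44 and 15.5 TPM in the knockout and 43.8 TPM in wild type (-1.85 ± 0.360, adjusted p = 0.0436), opposite in direction to Spry4 at the same day, and its call was lost when the G6 (0.106) or H8 (0.106) library of day 4 or the G6 (0.0895) or H8 (0.0911) library of day 8 was left out. Spry1, the third measured Sprouty gene, was at 9.83 and 18.8 TPM against 7.96 TPM at day 0, 21.9 and 23.5 TPM against 18.05 TPM at day 4, and 19.7 and 14.8 TPM against 28.9 TPM at day 8, with no call. Spred1, which restrains Ras, was called lower over all days (-0.81 ± 0.147, adjusted p = 0.04996), a call lost without any 1 of the 9 libraries (adjusted p 0.0612 to 0.128). The Spred1 call was lost as well with total count scaling (adjusted p = 0.0553), limma on log2(TPM + 1) (0.0614) and without the day 0 libraries (0.0833).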

How the data were processed

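PolyA+ RNA from 9 libraries was analysed. Per the submitters' processing notes, HISAT2 2.0.5, StringTie 1.3.3b and the mm10 build were used; what each did, which annotation served and whether strand was used are not given in the sources used here. The authors deposited whole-number counts per gene, unscaled between libraries, and TPM per gene, summing to 999787 to 1000218 in each library. Entries with no gene name (259, 0.0242% to 0.0398% of counts) were left out. Coordinates come from GENCODE M21 and promoter sequences from RefSeq (GRCm38.p6), both on the mm10 assembly.

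A gene was tested if at least 2 libraries reached the CPM that 10 counts make in the median library (24794 genes). The test was the two-sided quasi-likelihood F test of edgeR 4.0.16 after TMM scaling (R 4.3.3, limma 3.58.1). The SE given with an edgeR value was derived as the absolute log2 fold change divided by the square root of F. The p-values of the test were adjusted over all tested genes by Benjamini-Hochberg, with a threshold of 0.05, in 8 comparisons. Comparisons by day, by course and by interaction came from a mean for each of 6 groups (3 residual degrees of freedom), and the one over all days from day plus genotype (5 residual degrees of freedom). The lists hold genes of the pathway by known role, and per list and comparison up to 4 called genes of at least 5 TPM were named, with Fgf2, Fgf5, Spry1, Etv5 and Dusp4 given in any case; Fgf3 was also given as a neighbour of Fgf4. The members and lists were chosen with earlier results of these data known. Likeness between genes is the Pearson r of log2(TPM + 1).

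The knockout libraries of a line are paired across days, since the H8 minus G6 deviations correlate between days (Pearson r 0.202, 0.173 and 0.419 over 15732 genes) and come from the same line. By day, by course and by interaction, the p-values measure the spread between lines G6 and H8. Over all days the wild-type libraries enter it too. The labels do not say whether libraries came from separate cultures, so line, culture and technical variation cannot be told apart in this spread. Alternatives were RLE and total count scaling, no filter, DESeq2 1.42.0, limma on log2(TPM + 1) and log2(TPM + 0.1), the replicate block, each library left out and the day 0 libraries left out. The script was tested on simulated data. Reads carry no molecular identifiers, so intervals take in counting error alone.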

Additional observations from a re-analysis of the deposited data

Results flagged for a closer look

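Fgfr2 was noted because its genotype difference changed between days: the interaction of day 4 with day 0 was 3.24 on the log2 scale (adjusted p = 0.0428 by edgeR), from -3.08 at day 0 and 0.16 at day 4, and both knockout lines stood below wild type at day 0 and above it at day 4. The call was lost with the replicate block (3.24, adjusted p = 0.0616), with both limma settings (0.0641 and 0.0647) and without any 1 of the 4 knockout libraries of days 4 and 8 (0.132 to 0.226).

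Fgf17 was noted because both knockout lines lay below wild type at day 0 and above it at day 8. At day 0 line G6 was close to wild type, with a difference of -0.064 in log2(TPM + 1), against -1.65 in H8. The difference of knockout minus wild type was larger at day 8 than at day 0 by 2.28 in log2(TPM + 1), and this difference was not tested.

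Dusp6 was noted for the opposite turn, with both knockout lines above wild type at day 0 and below it at day 8. At day 8 the lines were close to wild type, with differences of -0.22 (G6) and -0.25 (H8) in log2(TPM + 1). The change in the difference was -0.93 in log2(TPM + 1), likewise not tested. The share of all genes that turn in either way was not counted, for Fgf17 or for Dusp6.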

How the results depend on the processing

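Over 8 comparisons the 10 genes gave 80 values, of which 13 were called. None reversed while called in any of 1260 alternative values, 37 values lost a call and 31 gained one, and 29 uncalled values had the other sign. Of the 13 calls, 11 were lost without some single library and 2 were kept in all settings run, Fgfr2 at day 0 and Fgfr2 between day 0 and day 4 in the knockout. Both kept calls use the day 0 knockout libraries, the shallowest and those with the largest shares of low counts at multiples of 4. The part of these traits in the 2 calls was not tested.

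The count of members called was 3 at day 0 (1 to 5 with each library left out), 0 at day 4 (0 throughout, but 2 by DESeq2), 3 at day 8 (0 to 4 with each library left out, 5 by DESeq2), 1 over all days (0 to 3 with each library left out, 5 by DESeq2, 3 with no filter, 3 with limma on log2(TPM + 0.1), 0 without the day 0 libraries), 5 for day 4 against day 0 in the knockout (2 to 5 with each library left out), 0 for day 8 against day 4 (2 by DESeq2), 1 for the first interaction (0 to 2 with each library left out, 3 by DESeq2, 0 with either pseudocount in limma, 0 with the replicate block) and 0 for the second (2 by DESeq2). The replicate block changed no other call. Over all genes DESeq2 called 3737, 1320, 5455, 3348, 6065, 1565, 1898 and 1577 genes in the same order, against 1347, 2, 2446, 244, 3650, 77, 125 and 0 by edgeR; with each library left out these edgeR counts ran from 375 to 1586, 0 to 6, 0 to 4196, 0 to 469, 675 to 4017, 0 to 164, 0 to 199 and 0 to 1. Other settings that moved the count of all genes by over 1.5 times gave, at day 4, 1 with total count scaling, 6 with no filter, 31 and 6 with limma on log2(TPM + 1) and log2(TPM + 0.1), 1 with the replicate block and 0 without the day 0 libraries. They gave 4188 at day 8 without the day 0 libraries, and over all days 382 with no filter, 91 and 426 with limma, 153 with the block and 14 without the day 0 libraries. They gave 150 with the block and 180 without the day 0 libraries for day 8 against day 4, 373 and 309 with limma and 12 with the block for the first interaction, and 337 and 1 with limma for the second. Over all days 96 genes were higher and 148 lower, against 97 and 99 with total count scaling. The causes were not tested.

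The wild type is 1 library per day, so its own library could not be left out of a comparison at that day. For the list counts and the named list genes the alternatives were added after seeing the data. Of 15 values of these genes, none reversed in any alternative, and Fgf5 between day 0 and day 4 in the knockout kept its call in all of them. Depth limits Fgf8 at day 0 and Fgf17 in wild type at day 8, with 7 to 42 counts and 43 counts.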

Other observations

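The genes whose levels were most like those of a member were read by Pearson r of log2(TPM + 1) over the 9 libraries, among 4317 genes with an SD of at least 0.5 on that scale and at least 10 TPM in 1 library. The most alike were Pcsk6 (0.978) and Akap1 (0.977) for Fgf4, T (0.984) and Scly (0.9754) for Fgf8, Rnf122 (0.972) and March8 (0.971) for Fgf15, and Ada (0.921) and Ccne1 (0.914) for Fgf17. For the receptors they were Gpc1 and Dgkk for Fgfr1 (both 0.961), and Zfp758 and Slc30a4 for Fgfr2 (both 0.984). For the feedback and target genes they were Cryzl2 (0.955) and Fbxo27 (0.952) for Spry2, Cox6b2 (0.934) and Cryzl2 (0.932) for Spry4, Slc46a3 (0.953) and Cpxm2 (0.939) for Dusp6, and Krt17 (0.969) and Mks1 (0.965) for Etv4. Cryzl2 stood among the most alike for both Sprouty genes. T is the primitive streak transcription factor Brachyury, and Pcsk6 is a proprotein convertase that processes TGF-beta family ligands. Each value describes 9 points that share lines and days, picked as the highest of many genes.

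The other marker lists gave the following sums. The 6 endoderm markers had 50.0 and 57.6 TPM in the day 8 knockout libraries and 335 TPM in wild type, the 5 trophoblast markers 41.5 and 109 TPM in the knockout against 296 TPM, the 5 neural markers 31.5 and 50.3 TPM against 86.4 TPM, and the 4 primed epiblast markers 289.8 and 161 TPM against 143 TPM. Single markers did not all move with these day 8 sums. Log2 fold changes were positive and negative for 2 and 3 trophoblast, 2 and 3 neural, 3 and 1 primed epiblast, and 0 and 6 endoderm markers. The endoderm, trophoblast and neural lists had 1 marker each called lower (4.86% of all genes), and the primed epiblast list had none called. No gene was called at day 8 if either day 4 knockout library was left out. In stem cells the primed epiblast markers, of which Fgf5 is 1, had 85.9 and 77.7 TPM in the knockout and 222 TPM in wild type.

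Between the knockout lines the levels of the members at the same day differed least for Etv4 at day 0 (1.0003 times) and most for Fgf15 at day 0 (4.36 times). At day 8 the lines differed by at most 1.08 times for Fgf4, Fgf15, Fgfr2, Spry4 and Dusp6.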
